A study of Mus musculus with 11 samples.

Results

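The ADAMTS genes encode secreted zinc proteases that cut proteins of the extracellular matrix, and the related ADAMTS-like genes encode secreted proteins without the protease part. Named here were 8 genes, Adamts1, Adamts2, Adamts4, Adamts5, Adamts9, Adamts12, Adamts15 and Adamtsl2. They were found by taking every probe set that the platform annotation assigns to exactly 1 of these symbols. This gave 14 probe sets for 7 of the genes, among 34945 probe sets with 1 gene symbol and 18193 genes in all, and Adamts2 was not analysed here.

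The samples were total RNA of colon from adult C57BL/6 mice, hybridised to 11 Affymetrix arrays. Imatinib, an inhibitor of Abl, Kit and PDGF receptor kinases, had been given for 3 h in the mice of 4 arrays and for 12 h in those of 4 arrays, and 3 control arrays came from colon before imatinib. Neither dose nor route is stated in the labels. Vehicle controls and controls matched for hour were not analysed here, so the drug, its giving and the hour of harvest cannot be told apart. The labels number the samples without saying that each came from its own mouse, so errors and p-values measure only the spread between these samples, which may be technical and whose precision the number of arrays limits.

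ADAMTS1, ADAMTS4, ADAMTS5, ADAMTS9 and ADAMTS15 are known as proteoglycanases, which cut the large hyaluronan-binding proteoglycans aggrecan and versican. ADAMTS2 removes the amino-terminal propeptide of fibrillar procollagens, and ADAMTS12 cuts cartilage oligomeric matrix protein. ADAMTSL2 has no protease domain and binds fibrillin and the latent TGF-beta binding protein LTBP1, and its loss in people causes geleophysic dysplasia. Several ADAMTS genes are known for fast and transient transcription after hormones or cytokines, Adamts1 being a progesterone target in the ovary.

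Promoter sequences were at hand for 5 of the 8 genes in the RefSeq table of GRCm38.p6, and those of Adamts1, Adamts9 and Adamtsl2 are shown because these genes were higher at 3 h. That of Adamts12, which was not, is shown beside them. Each is the 250 bases before the annotated start of a transcript, read 5′ to 3′ on the gene's strand. Capitals mark TGACG, the half-site of the cAMP response element, and TATAAA, the TATA box, and both motifs were chosen with the sequences in view.
Adamts1, chr16:85803114-85803363, minus strand: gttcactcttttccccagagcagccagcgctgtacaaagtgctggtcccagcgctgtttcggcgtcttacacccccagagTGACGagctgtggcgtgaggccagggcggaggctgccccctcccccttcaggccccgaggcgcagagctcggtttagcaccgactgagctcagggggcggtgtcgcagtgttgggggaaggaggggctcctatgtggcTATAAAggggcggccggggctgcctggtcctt
Adamts9, chr6:92943535-92943784, minus strand: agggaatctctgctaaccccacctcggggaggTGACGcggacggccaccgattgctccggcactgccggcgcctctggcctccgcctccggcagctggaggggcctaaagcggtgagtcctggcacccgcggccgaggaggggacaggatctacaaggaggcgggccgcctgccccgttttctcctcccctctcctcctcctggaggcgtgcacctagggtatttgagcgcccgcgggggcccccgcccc
Adamtsl2, chr2:27079129-27079378, plus strand: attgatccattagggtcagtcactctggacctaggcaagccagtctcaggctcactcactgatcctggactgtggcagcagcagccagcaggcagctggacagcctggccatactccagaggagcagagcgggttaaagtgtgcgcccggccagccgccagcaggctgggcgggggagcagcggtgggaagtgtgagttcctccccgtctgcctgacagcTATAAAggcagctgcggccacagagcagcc
Adamts12, chr15:11064523-11064772, plus strand: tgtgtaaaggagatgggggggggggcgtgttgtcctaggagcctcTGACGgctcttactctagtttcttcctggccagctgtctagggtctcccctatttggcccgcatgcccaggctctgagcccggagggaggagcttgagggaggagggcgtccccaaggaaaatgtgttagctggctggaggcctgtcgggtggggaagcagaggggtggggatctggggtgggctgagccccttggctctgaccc

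In a search of both strands TGACG lay once in the windows of Adamts1, Adamts9 and Adamts12, and in none of Adamts2 and Adamtsl2. It lay in 17.8% of the 32851 promoters of the table. TATAAA lay in the windows of Adamts1, 26 bases before the start, and Adamtsl2, 24 bases before it, and in 12.4% of all promoters. The AP-1 motif TGANTCA (6.75% of all promoters), the E-box CACGTG (6.02%) and the palindromic glucocorticoid response element (0.00913%) matched none of the 5 windows, and none of these motifs overlapped another. The GC box GGGCGG lay in the windows of Adamts1, Adamts2, Adamts9 and Adamtsl2 but not of Adamts12, and in 32.7% of all promoters. The half-site did not separate the genes that were higher at 3 h from Adamts12. Adamts12 was the only measured gene with a window that was not called higher, so nothing is read from these matches. A match here describes letters and not a bound site.

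The genes were chosen by their signals on these same arrays, in all 3 contrasts between the groups, and Adamts4 and Adamts1 held ranks 4 and 9 among all rises at 3 h. The values of the 7 genes in the 3 groups are therefore given as a description, with standard errors and without p-values. Signals are linear intensities of the authors' table, and a log2 change is that of signal plus 16, which understates changes of dim genes. Levels of different probe sets cannot be set against each other.

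At 3 h after imatinib 4 of the 7 genes were higher than in control, the proteoglycanase genes Adamts1, Adamts4 and Adamts9 and the fibrillin-binding Adamtsl2. At 12 h the arrays of Adamts4 overlapped those of control and the brightest Adamts9 probe set lay below control, while those of Adamts1 and Adamtsl2 were lower than at 3 h and still above control on every array. Adamts5, Adamts12 and Adamts15 did not pass the call described next at either time. In bulk tissue fewer cells of a type and less RNA per cell cannot be told apart. A gene was called when limma's adjusted p over all 18193 genes was under 0.05. By this rule 4 of the 7 were called higher at 3 h, where 1.43% of all genes were called higher and 1.10% lower (261 and 201 genes, 2.54% in all). Arrays of 3 h lay entirely above those of control for the same 4 genes and entirely below for none, as for 6.77% and 8.56% of all genes. After the arrays were shifted to an equal median 205 genes were called higher and 78 lower at 3 h. Because this contrast chose the genes, nothing is read from the counts.

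Adamts1, represented by a single probe set, had signals of 368.1, 357.8, 333.1 and 264.5 on the 3 h arrays, against 36.1, 32.8 and 29.4 on the control arrays. Every 3 h array lay far above every control array, and the lowest was replicate 4. The mean was 330.9 ± 46.6 (SD, n = 4) at 3 h and 32.8 ± 3.35 (SD, n = 3) in control, a ratio of mean signals of 10.1 and a log2 change of 2.82 ± 0.14 (SE). At 12 h the 4 arrays had 72.6, 54.6, 77.0 and 52.5, all of them between the ranges of the 3 h and the control arrays. The log2 change was −2.12 ± 0.13 (SE) for 12 h against 3 h and 0.71 ± 0.14 (SE) for 12 h against control. The change at 12 h against control passed the call with all arrays, but not when any 1 of the 3 control arrays or of 12 h replicates 1 to 3 was left out (log2 change 0.63 to 0.78 over all arrays left out in turn).

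Adamts4 had 2 probe sets, which moved together. The brighter had signals of 254.9, 356.0, 234.9 and 158.5 at 3 h, against 15.2, 13.8 and 22.7 in control. The dimmer had 234.0, 283.4, 275.7 and 174.9 at 3 h, against 12.7, 3.8 and 10.5 in control. On both probe sets replicate 2 was the highest and replicate 4 the lowest of the 3 h arrays, and no 3 h array overlapped the controls. Log2 changes at 3 h were 2.96 ± 0.25 (SE) for the brighter and 3.36 ± 0.21 (SE) for the dimmer probe set. At 12 h the brighter probe set gave 32.9, 14.7, 24.5 and 9.5, a range that spans all control values, with a log2 change of 0.10 ± 0.25 (SE) against control and −2.87 ± 0.24 (SE) against 3 h. The dimmer probe set gave 15.2, 14.7, 20.1 and 4.4 at 12 h, of which 3 lay above every control array and replicate 4 within the control range. Its log2 change was 0.23 ± 0.21 (SE) against control, which did not pass the call.

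Adamts9, whose protein also has a conserved carboxy-terminal GON domain, had 3 probe sets, and they did not agree. The brightest had signals of 162.8, 263.6, 170.4 and 167.7 at 3 h, against 57.1, 41.4 and 38.7 in control. The second had 59.5, 47.5, 63.6 and 65.8 at 3 h, against 7.5, 15.2 and 15.3 in control. Replicate 2 was the highest 3 h array on the first of these and the lowest on the second, and on both the groups did not overlap. Their log2 changes at 3 h were 1.73 ± 0.17 and 1.40 ± 0.16 (SE). The third probe set had 15.0, 8.1, 21.2 and 21.9 at 3 h, against 12.3, 21.1 and 24.6 in control, with overlapping groups and a log2 change of −0.12 ± 0.23 (SE). The part of the transcript each probe set reads is not given in the sources used here. Averaging the 3 probe sets gave a log2 change of 1.00 at 3 h.

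At 12 h the brightest Adamts9 probe set had signals of 26.5, 24.9, 37.0 and 34.4, all below the lowest control array. The log2 change was −0.40 ± 0.17 (SE) against control, which did not pass the call, and −2.13 ± 0.16 (SE) against 3 h. The second probe set had a log2 change of −0.18 ± 0.16 (SE) at 12 h against control, with overlapping arrays. On neither of these probe sets was the 12 h mean above the control mean.

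Adamtsl2 had 1 probe set, with signals of 62.2, 66.8, 46.2 and 46.8 at 3 h, against 5.5, 4.9 and 5.1 in control. The control arrays were close to each other and near the bottom of the scale, so the ratio of mean signals of 10.7 rests on a small denominator. The log2 change of signal plus 16 was 1.74 ± 0.18 (SE), and its size depends on the offset, being 3.18 with an offset of 1 and 0.78 with an offset of 64. At 12 h the arrays had 30.9, 21.5, 36.4 and 13.6, below every 3 h array and above every control array. The log2 change was 0.94 ± 0.18 (SE) for 12 h against control and −0.80 ± 0.17 (SE) for 12 h against 3 h. The 12 h call against control was lost without any 1 of the 3 control arrays or of 12 h replicates 1 to 3, with log2 changes of 0.82 to 1.09 over all arrays left out in turn. The call of 12 h against 3 h was lost without 3 h replicate 1 or 2 or 12 h replicate 2 (−0.93 to −0.65).

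**Figure D1:**
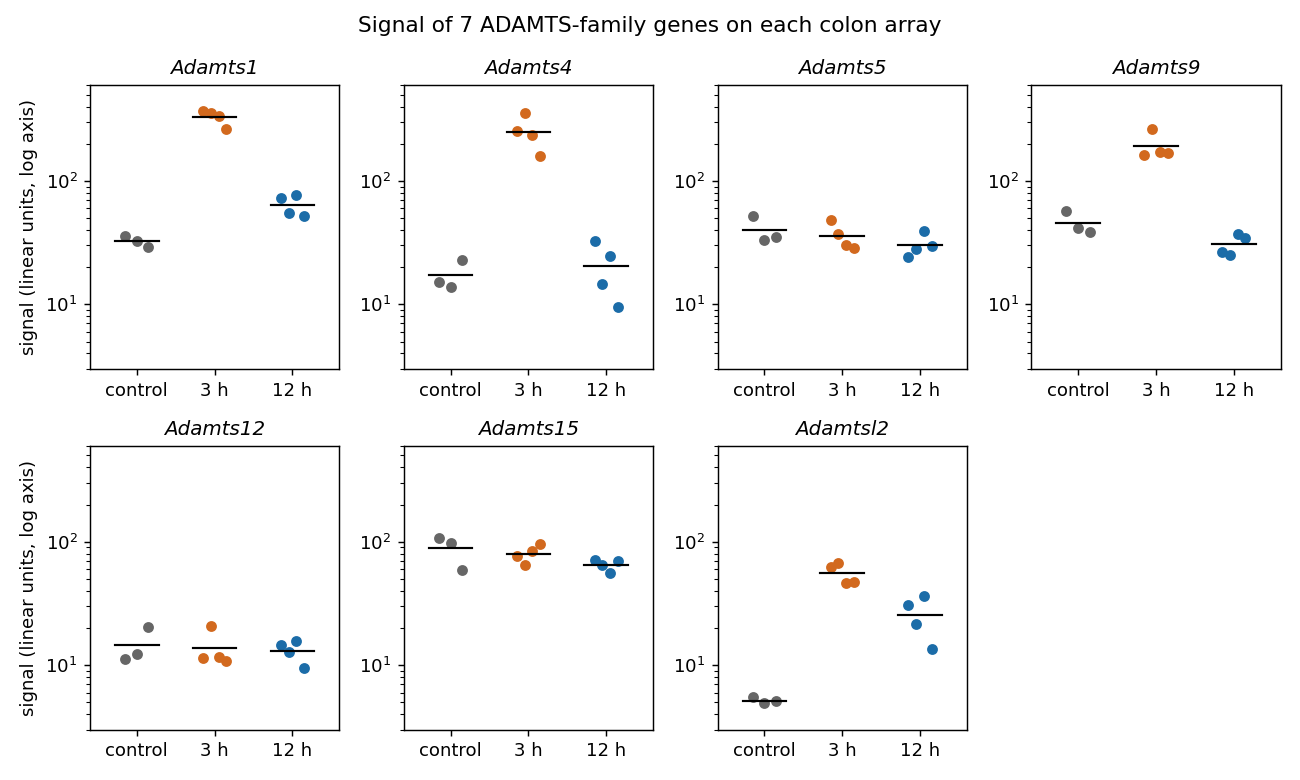
Signal of the brightest probe set of each of the 7 genes on every array (points; linear units on a log axis) by group in order of time, with the group mean as a bar. Adamts1, Adamts4, Adamts9 and Adamtsl2 have 3 h arrays that lie above all control arrays, Adamts1 and Adamtsl2 remain above control at 12 h, and the groups of Adamts5, Adamts12 and Adamts15 overlap.

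The proteoglycanase gene Adamts5 had 4 probe sets and none passed the call at either time. The brightest had signals of 47.9, 37.3, 30.3 and 28.7 at 3 h, against 52.0, 33.4 and 35.4 in control, and the log2 change was −0.11 ± 0.16 (SE). At 12 h it had 24.1, 28.2, 39.1 and 29.8, a log2 change of −0.28 ± 0.16 (SE) against control. The groups overlapped at both times. Log2 changes of the other 3 probe sets lay between −0.02 and 0.18 at 3 h, and the dimmest of them never exceeded a signal of 1.0. Adamts5 and Adamts1 both lie on mouse chromosome 16, with no protein-coding gene between them in the RefSeq annotation, and of these neighbours Adamts1 alone passed the call at 3 h. Whether their changes differ was not tested.

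Adamts15, another proteoglycanase gene, had signals of 76.9, 64.2, 83.7 and 95.0 at 3 h, against 107.9, 98.3 and 59.1 in control. At 12 h it had 71.7, 64.4, 55.4 and 69.6. The control arrays were spread more widely than either treated group, and all 3 groups overlapped. Log2 changes were −0.10 ± 0.17 (SE) at 3 h and −0.33 ± 0.17 (SE) at 12 h.

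Adamts12 was dim on its brighter probe set, with signals of 11.5, 20.9, 11.7 and 10.8 at 3 h, against 11.3, 12.3 and 20.2 in control. Its log2 changes were −0.04 ± 0.14 (SE) at 3 h and −0.06 ± 0.14 (SE) at 12 h, and its second probe set had at most a signal of 5.6 on any array. A fall of a gene this dim would be hard to see on this scale.

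**Figure D2:**
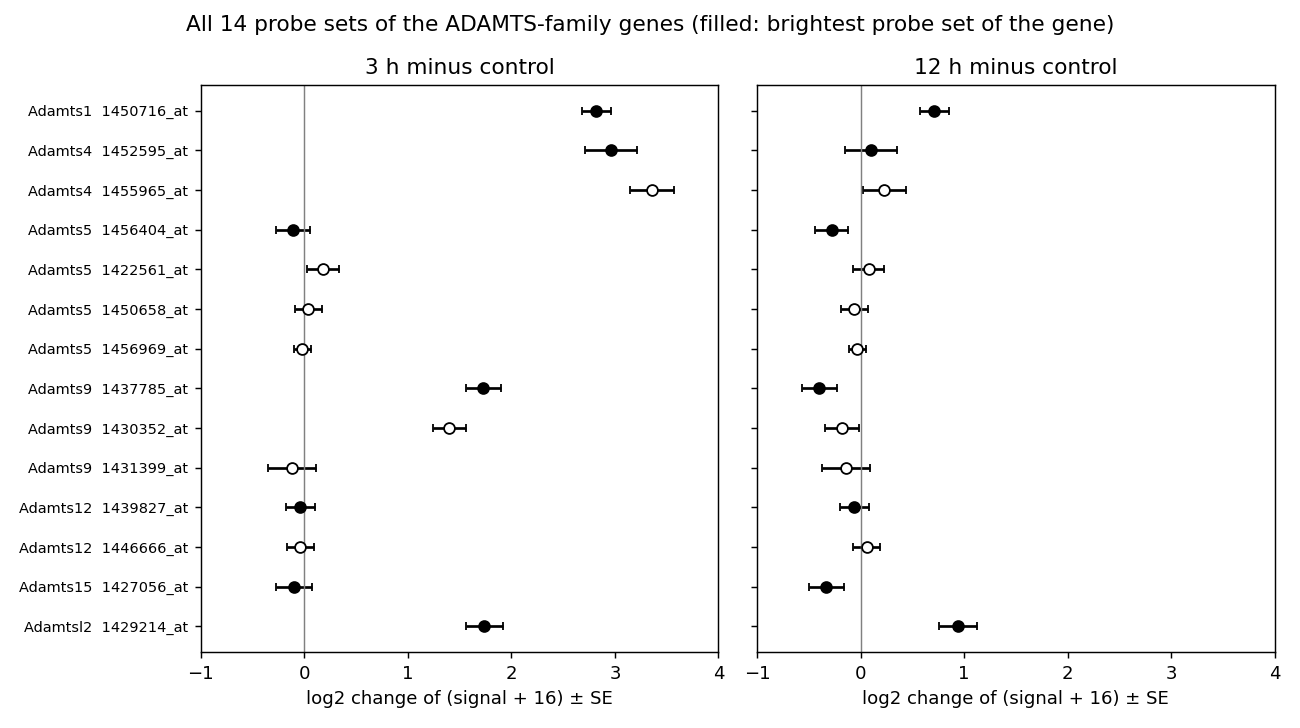
Log2 change of signal plus 16 with its standard error (x axis) for all 14 probe sets, at 3 h minus control (left) and at 12 h minus control (right), with the brightest probe set of each gene filled. Both Adamts4 probe sets and 2 of 3 Adamts9 probe sets lie to the right at 3 h (1.40 to 3.36), while all 4 Adamts5 probe sets lie between −0.11 and 0.18.

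Against control at 12 h, 2 of the 7 genes were called higher (Adamts1 and Adamtsl2) and none lower, where 0.786% of all genes were called higher and 1.63% in either direction. At an equal median 150 genes were called higher and 64 lower at 12 h, in place of 143 and 154. Arrays of 12 h and control did not overlap for 3 of the 7, as for 13.0% of all genes. They lay above control for Adamts1 and Adamtsl2 (6.05% of all genes) and below it for Adamts9 (6.99%). Between 12 h and 3 h 4 of the 7 were called lower and none higher, where 2.08% of all genes were called lower, 1.99% higher and 4.07% in either direction. Arrays of 12 h lay entirely below those of 3 h for these 4, as for 5.26% of all genes. These contrasts too were known when the genes were chosen, and nothing is read from the counts. The median log2 change of the 7 genes was 1.73 at 3 h, −0.06 at 12 h and −0.80 for 12 h against 3 h, beside −0.02, −0.01 and 0.01 over all genes. The contrasts share arrays and are not independent of each other.

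The rule for likeness was Pearson's r of the log2 level over the 11 arrays, among 9054 genes with a mean log2 level of at least 6. For Adamts1 the highest were the potassium channel subunit gene Kcne4 (r = 0.993), Smim3 (0.984) and the sphingosine kinase gene Sphk1 (0.984). For Adamts4 they were Sphk1 (0.988), the nuclear receptor gene Nr4a2 (0.987) and the phosphatase gene Ptpn2 (0.986). Adamts9 was most like the scaffold protein gene Akap12 (0.981), Fndc3b (0.977) and Akap2 (0.973). These arrays form groups, and r within groups was not computed.

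For Adamtsl2 the highest were the gene of the activin antagonist follistatin, Fst (0.946), the cyclic GMP phosphodiesterase gene Pde9a (0.932) and Kcne4 (0.929). Log2 changes of Fst were 1.53 at 3 h and 0.68 at 12 h, and those of Kcne4 were 3.14 and 0.86. A pattern like that of Adamtsl2 is what the rule selected. Adamts15 was most like Pdk3 (0.932), Ptprk (0.915) and Galnt7 (0.910). No gene reached 0.9 with Adamts5 (highest Rftn1, 0.897, Stxbp3 and Eif2s2) or with Adamts12 (highest the membrane protease gene St14, 0.846, Ttc22 and Zfp36). Among the 7 genes themselves r was 0.97 for Adamts4 with Adamts1, 0.95 for Adamts9 with Adamts4 and 0.90 for Adamts9 with Adamts1. For Adamtsl2 it was 0.93 with Adamts1, 0.85 with Adamts4 and 0.71 with Adamts9. Over the other 15 of the 21 pairs it ran from −0.61, for Adamts15 with Adamts12, to 0.26. The 7 genes were chosen by their signals on these same arrays, so nothing is read from r between them.

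Of 17 other ADAMTS and ADAMTS-like genes 14 were measured, and none passed the test at 3 h or 12 h against control. Unadjusted limma p was under 0.05 for 0 of them at 3 h and 2 at 12 h, beside 2735 and 2883 of all 18193 genes. Their log2 changes at 3 h ran from −0.38 for Adamts6 to 0.21 for Adamtsl5, with a median of 0.06. Adamts20 and Adamtsl3 had log2 changes of −0.23 ± 0.13 and −0.21 ± 0.12 (SE; limma adjusted p = 0.469 and 0.483) at 3 h. Adamtsl1, which encodes a matrix glycoprotein also called punctin, had a signal of 15.9 ± 3.67 at 12 h and 29.5 ± 2.34 at 3 h (SD, n = 4 each). It fell by 0.52 ± 0.12 on the log2 scale between them (SE; limma adjusted p = 0.0332), a call lost without any 1 array of the 3 h group or without 12 h replicate 1, 2 or 4 (limma adjusted p up to 0.0885). Log2 changes of the 3 Adamtsl1 probe sets between these times ran from −0.52 to 0.08. Against control at 12 h Adamtsl5 (0.44 ± 0.16, SE) and Adamtsl1 (−0.39 ± 0.13, SE) had the smallest p (limma adjusted p = 0.199 and 0.166). Most of these genes were dim.

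The substrates and binding partners were a list of 21 genes, 19 of them measured. This list, like the others, was chosen with earlier results of these data known, so nothing is read from its counts. At 3 h 1 rose and none fell, where 1.43% of all genes rose, and the median log2 change was −0.07. The gene that rose was Thbs1, which encodes thrombospondin 1, a matrix protein that ADAMTS1 cuts. Its signals were 472.1, 553.8, 394.5 and 394.1 at 3 h, against 126.3, 157.8 and 102.4 in control, without overlap. It rose by 1.70 ± 0.30 on the log2 scale (SE; limma adjusted p = 0.0135), and the call was lost without control replicate 1 (limma adjusted p = 0.0577) and with an offset of 1, where none of the 19 was called. Its dimmer probe set changed by 1.49. At 12 h Thbs1 had 221.1, 156.6, 182.1 and 63.8, a fall of 1.54 ± 0.28 on the log2 scale against 3 h (SE; limma adjusted p = 0.0100).

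Sdc4, which encodes a cell-surface heparan sulfate proteoglycan, had 455.9, 464.5, 344.0 and 342.5 at 12 h, against 646.7, 722.9, 708.9 and 635.0 at 3 h. It fell between these times by 0.75 ± 0.12 on the log2 scale (SE; limma adjusted p = 0.00454), and its dimmer probe set changed by 0.04. The control arrays had 441.9, 478.8 and 508.0, below every 3 h array. Arrays of 3 h lay above control for 6.77% of all genes. Against control Sdc4 changed by 0.50 ± 0.13 at 3 h and −0.25 ± 0.13 at 12 h (SE; limma adjusted p = 0.0650 and 0.380). The dimmer Sdc4 probe set changed by −0.42 at 3 h and −0.38 at 12 h. The large proteoglycans that the proteoglycanases cut did not pass the test. Versican (Vcan), named like aggrecan after its value was seen, had a mean signal of 97.8 at 3 h and 101.8 in control, a difference of −0.05 ± 0.18 on the log2 scale (SE; limma adjusted p = 0.944). At 12 h Vcan changed by −0.48 ± 0.18 against control (SE; limma adjusted p = 0.218). Its 12 h arrays all lay below control, as for 6.99% of all genes. Aggrecan (Acan) was dim, with 6.30 at 3 h and 14.7 in control and a difference of −0.36 ± 0.28 on the log2 scale (SE; limma adjusted p = 0.622).

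At 12 h 4 of the 19 substrate genes fell against control and none rose, where 0.846% of all genes fell. The number called was 2 with arrays shifted to an equal median and 2 with an offset of 1. All 4 encode fibrillar collagen chains, and chains of this kind are cut by ADAMTS2 and its relatives. Col3a1 had a signal of 2602.9 ± 103.9 at 12 h (SD, n = 4) and 4359.9 ± 725.4 in control (SD, n = 3), and fell by 0.73 ± 0.11 on the log2 scale (SE; limma adjusted p = 0.00905). Col1a2 changed by −0.72 ± 0.12 (SE; limma adjusted p = 0.0144), and the call was lost without control replicate 1 (limma adjusted p = 0.0629). Col5a1 (−0.80 ± 0.16, SE) and Col1a1 (−1.01 ± 0.22, SE) were called with limma adjusted p = 0.0346 and 0.0424, and both were lost without control replicate 1 or 2, 3 h replicate 1 or 2 or 12 h replicate 2, 3 or 4. Col5a1 was also lost without control replicate 3, and Col1a1 without 3 h replicate 4 (limma adjusted p up to 0.138 and 0.159). Against 3 h, 6 of the 19 fell at 12 h, namely Sdc4, Thbs1 and these 4 collagen genes, where 2.08% of all genes fell. The number called was 3 with arrays shifted to an equal median and 4 with an offset of 1. For 12 h against 3 h the call of Col3a1 was lost without 3 h replicate 1 or 2 or 12 h replicate 2 (limma adjusted p up to 0.0574). Log2 changes of the 3 Col1a2 probe sets in this contrast ran from −0.78 to 0.02.

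Hyaluronan is the polysaccharide to which versican and aggrecan bind. Of 13 genes of its synthesis, binding and breakdown 12 were measured, and at 3 h 3 rose and none fell, where 1.43% of all genes rose and 1.10% fell. With an offset of 1 only 1 of the 12 was called. As this list too was chosen with earlier results of these data known, nothing is read from the counts. Ptx3, whose product pentraxin 3 helps to cross-link hyaluronan matrices, had 192.1, 214.2, 268.7 and 193.0 at 3 h, against 11.5, 6.1 and 7.7 in control. Has1, a hyaluronan synthase gene, had 64.9, 61.6, 72.4 and 52.0 at 3 h, against 14.8, 18.8 and 31.3 in control. Tnfaip6, whose product TSG-6 transfers protein chains to hyaluronan, had 40.4, 41.6, 41.1 and 32.8 at 3 h, against 17.3, 17.9 and 19.2 in control. No 3 h array overlapped a control array for any of these genes.

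Log2 changes at 3 h were 3.25 ± 0.20 (SE; limma adjusted p = 8.02e-06) for Ptx3, 1.08 ± 0.22 (SE; limma adjusted p = 0.0254) for Has1 and 0.68 ± 0.13 (SE; limma adjusted p = 0.0160) for Tnfaip6. The dimmer Ptx3 probe set changed by 0.11. The calls of both Has1 and Tnfaip6 were lost without control replicate 1 or 2 or 3 h replicate 2 or 3, and that of Has1 also without 3 h replicate 1 (limma adjusted p up to 0.121 and 0.0751). At 12 h none of the 12 passed the test against control. Unadjusted limma p was under 0.05 for 4, beside 2883 of all 18193 genes. Smallest in p there were Itih5 (−0.63 ± 0.15, SE; limma adjusted p = 0.0625), Ptx3 (0.57 ± 0.20, SE; limma adjusted p = 0.185) and Hapln1 (−0.44 ± 0.17, SE; limma adjusted p = 0.238). Between 12 h and 3 h Ptx3 fell by 2.68 ± 0.19 and Tnfaip6 by 0.74 ± 0.12 on the log2 scale (SE; limma adjusted p = 1.57e-05 and 0.00442). The hyaluronidase gene Hyal2 rose by 0.77 ± 0.19 (SE; limma adjusted p = 0.0426), a call lost without any 1 array other than control replicate 2 or 3 h replicate 2 (limma adjusted p up to 0.121).

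Inhibitors, cofactors and processing enzymes of ADAMTS proteases formed a list of 13 genes, all measured. None passed the test in any of the 3 contrasts. Unadjusted limma p was under 0.05 for 3, 4 and 2 genes, beside 2735, 2883 and 3231 of all 18193 genes. Timp1, a metalloprotease inhibitor gene, had 93.0, 130.6, 103.5 and 85.5 at 3 h, against 40.2, 24.8 and 47.2 in control, without overlap. At 12 h Timp1 had 184.1, 168.6, 169.3 and 34.9, of which only replicate 4 lay within the control range. Log2 changes of Timp1 were 1.17 ± 0.40 at 3 h and 1.38 ± 0.40 at 12 h (SE; limma adjusted p = 0.165 and 0.108). Without 12 h replicate 4 the 12 h change was 1.85 and passed the call. This array was singled out here by its low Timp1 signal, so nothing is read from that call. Without it 455 of all genes were called at 12 h, in place of 297. Timp3, the main tissue inhibitor of the aggrecan-cutting ADAMTS proteases, had a mean signal of 296.4 at 3 h and 290.8 in control, a difference of 0.02 ± 0.13 on the log2 scale (SE; limma adjusted p = 0.968). Between 12 h and 3 h it changed by −0.30 ± 0.12 (SE; limma adjusted p = 0.221). Pcsk5, a proprotein convertase gene, and B3glct, which encodes a sugar transferase of thrombospondin repeats, changed by 0.38 ± 0.13 and 0.35 ± 0.14 at 3 h (SE; limma adjusted p = 0.155 and 0.233). The ADAMTS1 cofactor gene Fbln1 and the uptake receptor gene Lrp1 changed by −0.35 ± 0.10 and −0.25 ± 0.11 at 12 h (SE; limma adjusted p = 0.117 and 0.286).

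Of 23 matrix metalloprotease genes, a separate family of zinc proteases, 18 were measured. At 3 h 1 fell, Mmp11, and none rose, where 1.10% of all genes fell and 1.43% rose. Mmp11 was dim, with 4.22 ± 3.48 at 3 h (SD, n = 4) and 17.5 ± 5.46 in control (SD, n = 3), and fell by 0.73 ± 0.15 on the log2 scale (SE; limma adjusted p = 0.0255), and the call was lost without control replicate 2 or 3 or 3 h replicate 2, 3 or 4 (limma adjusted p up to 0.112). Between 12 h and 3 h Mmp11 rose by 0.62 ± 0.14 (SE; limma adjusted p = 0.0286), a call lost without 3 h replicate 2, 3 or 4 or any 1 array of the 12 h group (limma adjusted p up to 0.0833). At 12 h none passed the test, and unadjusted limma p was under 0.05 for 7, beside 2883 of all 18193 genes. The smallest p there were those of Mmp12 (−0.56 ± 0.13, SE; limma adjusted p = 0.0508), Mmp2 (−0.54 ± 0.13, SE; limma adjusted p = 0.0579) and Mmp24 (0.59 ± 0.18, SE; limma adjusted p = 0.130). Mmp12 and Mmp24 were dim, with mean signals of 3.85 and 21.2 at 12 h and 13.1 and 8.53 in control. Log2 changes of the 3 Mmp24 probe sets in this contrast ran from 0.01 to 0.59.

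Of 12 ADAM genes, relatives whose proteins are mostly membrane-bound, all were measured. At 3 h, at 12 h and between these times 1 was called, where 2.54%, 1.63% and 4.07% of all genes were. Adam19 fell at 3 h by 0.77 ± 0.11 (SE; limma adjusted p = 0.00408), with 34.6 ± 3.46 at 3 h (SD, n = 4) and 70.4 ± 10.5 in control (SD, n = 3). Between 12 h and 3 h it rose by 0.54 ± 0.10 (SE; limma adjusted p = 0.0122). Adam15 fell at 12 h by 0.61 ± 0.12 against control (SE; limma adjusted p = 0.0259), a call lost without any 1 of the 3 control arrays or without 12 h replicate 2 or 3 (limma adjusted p up to 0.0967).

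**Figure D3:**
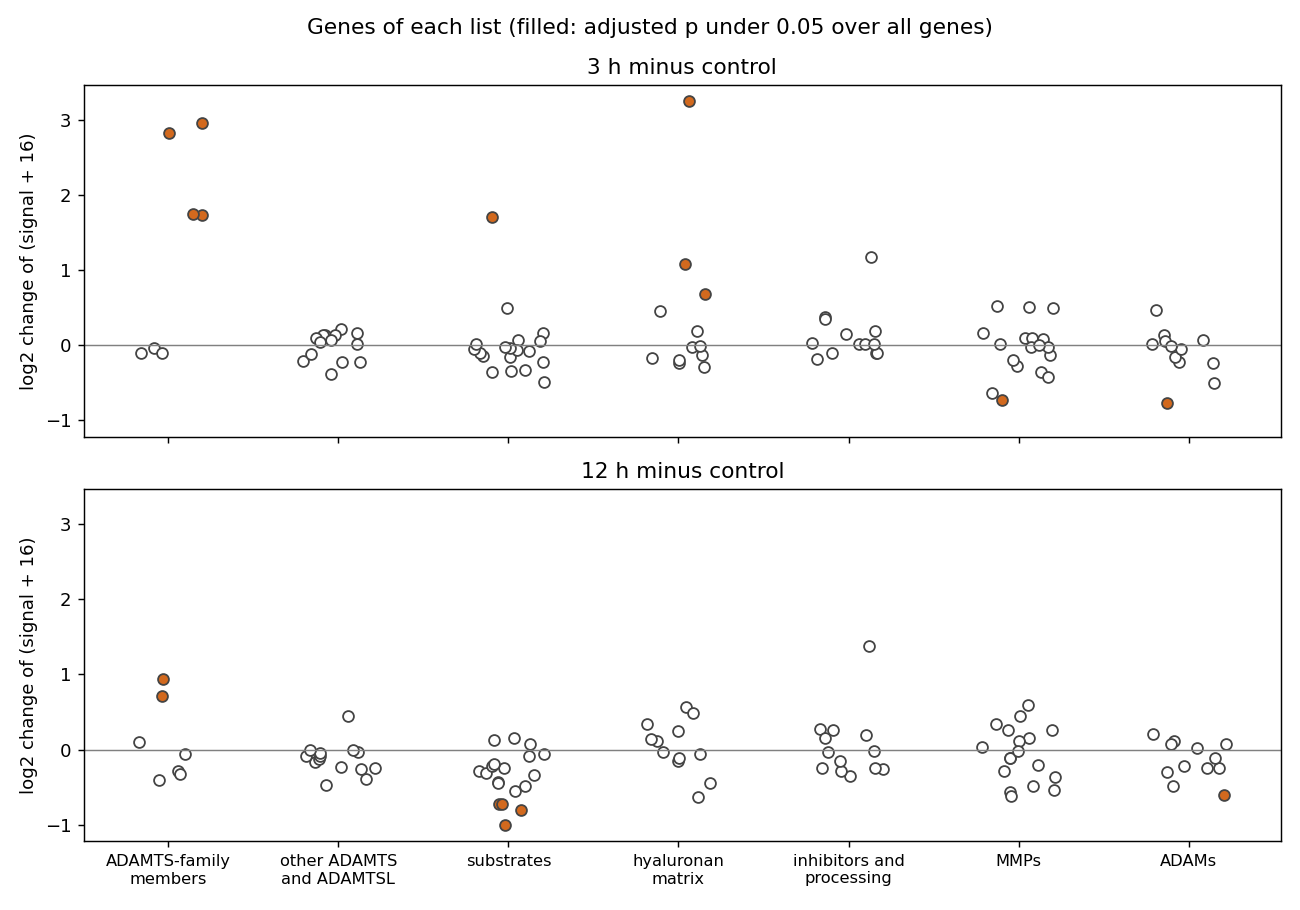
Log2 change of signal plus 16 of each measured gene (points) by list, at 3 h minus control (top) and 12 h minus control (bottom), filled where limma's adjusted p over all genes was under 0.05. At 3 h the filled points above 0 are the 4 ADAMTS-family members, Thbs1 among the substrates, and Ptx3, Has1 and Tnfaip6 in the hyaluronan list, and at 12 h the 4 filled substrate points below 0 are collagen genes.

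**Figure D4:**
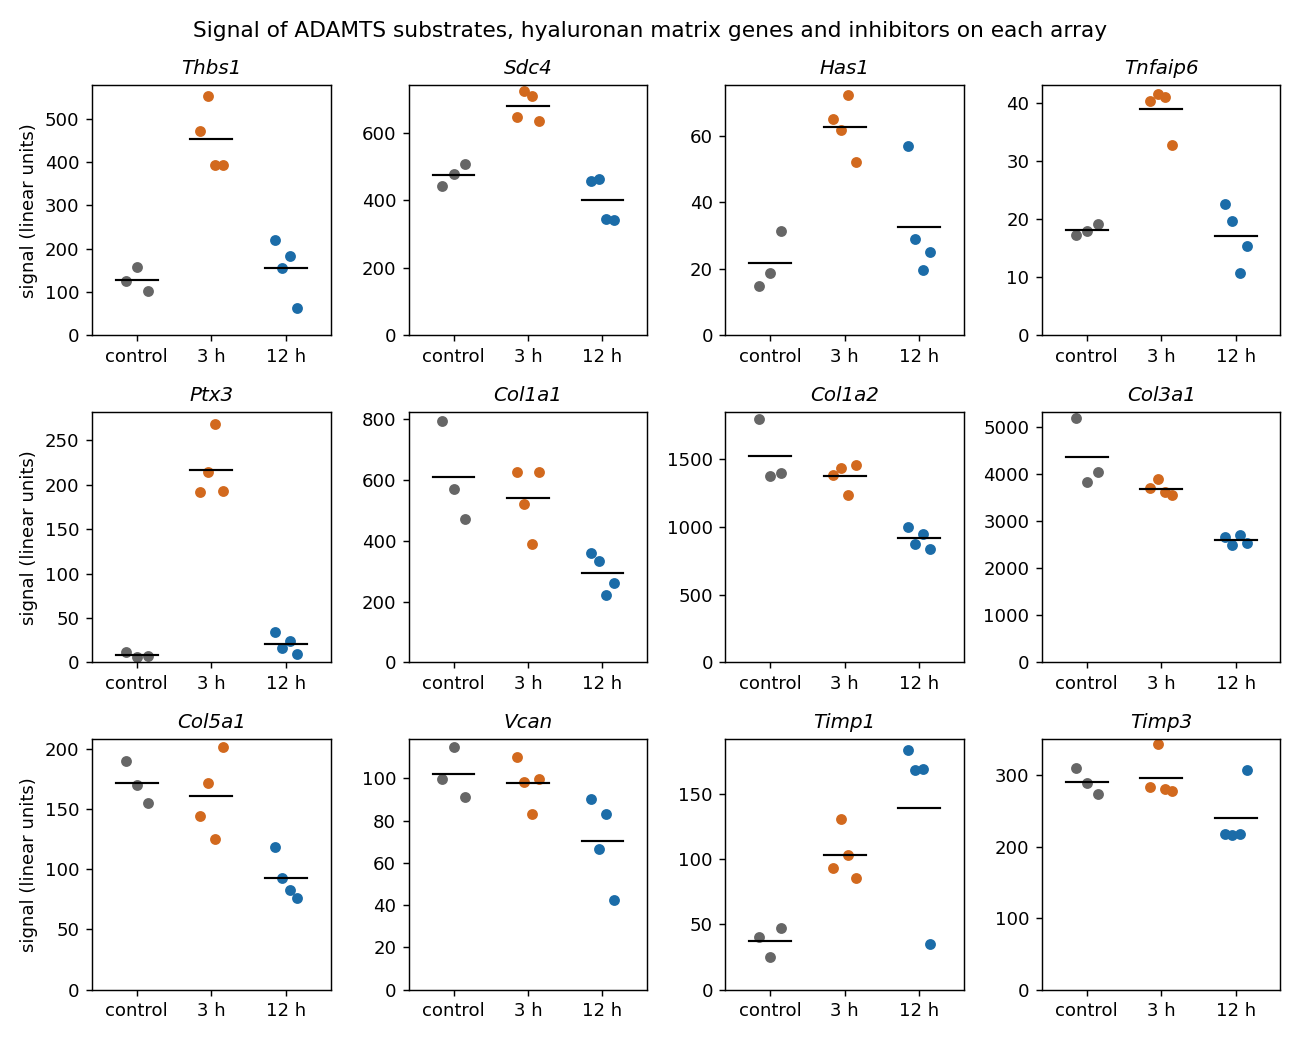
Signal on every array (points; linear units) of 12 matrix genes by group in order of time, with group means as bars. Thbs1, Sdc4, Has1, Tnfaip6, Ptx3 and Timp1 have 3 h arrays above all control arrays. Col1a1, Col1a2, Col3a1, Col5a1 and Vcan have 12 h arrays below all control arrays, and Timp1 has 1 low 12 h array at 34.9.

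Other features moved with the groups, and their part in these results was not tested. Of all genes 1.43% were called higher at 3 h, and 0.786% higher and 0.846% lower at 12 h, all against control. Between 12 h and 3 h 2.08% were called lower. Unadjusted limma p was under 0.05 for 2735 of all 18193 genes at 3 h, 2883 at 12 h and 3231 between the times. No such share was computed for sums of markers. The summed signal of 6 measured fat markers was 1625 to 2400 at 3 h and 778 to 1040 in control, and 1 of the 6, Fabp4, was called higher. Log2 changes of the 6 at 3 h ran from 0.18 to 1.36, with a median of 0.76 and unadjusted limma p under 0.05 for 5. At 12 h the fat sum was 1122 to 2271, and Fabp4 was again called higher. The median of the 6 was then 0.52, with unadjusted limma p under 0.05 for 4. Log2 changes of the 4 Fabp4 probe sets ran from −0.15 to 1.16 at 3 h and from −0.18 to 1.11 at 12 h. Of 12 fibroblast markers 4 fell at 12 h (Col3a1, Col1a2, Col1a1 and Lum), with sums of 7574 to 8396 at 12 h and 10770 to 14148 in control, so 3 of the 4 collagen falls above are also falls of this list. None of 8 smooth muscle markers passed the test at 12 h (unadjusted limma p under 0.05 for 6), with sums of 13287 to 21178 at 12 h and 19597 to 23716 in control. Against 3 h, 2 of these 8 fell at 12 h, Des (−0.88 ± 0.19, SE; limma adjusted p = 0.0218) and Actg2 (−0.76 ± 0.17, SE; limma adjusted p = 0.0247), with a list median of −0.69 and unadjusted limma p under 0.05 for 7. Of the fibroblast markers 3 fell between these times, with sums of 7574 to 8396 at 12 h and 10442 to 11817 at 3 h. Of 8 macrophage markers Csf1r fell at 12 h against control (−0.53 ± 0.12, SE; limma adjusted p = 0.0441), with sums of 1496 to 1693 at 12 h and 1707 to 2397 in control, without overlap. At 3 h none of the fibroblast, smooth muscle or endothelial markers passed the test (unadjusted limma p under 0.05 for 0, 0 and 1), and their sums overlapped those of control.

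The summed signal of 10 markers of intestinal epithelium was 37865 to 51974 over the 11 arrays labelled as colon. Of these 1, Cdx2, rose at 3 h (0.75 ± 0.10, SE; limma adjusted p = 0.00241), where 1.43% of all genes rose. Transcripts of pancreatic acinar cells varied widely within every group, with summed signals of 13 markers from 4515 to 117082, and 5 arrays stood apart as high in them. These were control replicate 1, 3 h replicate 3 and 12 h replicates 1, 3 and 4. Without them 4 of the 7 ADAMTS-family genes were called higher at 3 h, a contrast that also chose them. At 12 h, where 1 array is then left and is assumed to vary like the other groups, none was called. The summed signal of 12 probe sets for RNA added during preparation was 2701 to 3063 at 3 h, 3306 to 6567 at 12 h and 2346 to 2744 in control. The ratio of 3′ to 5′ signal of actin, a measure of RNA integrity, was 1.23 to 1.38 over all arrays.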

How the data were processed

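Biotin-labelled total RNA of colon was hybridised to arrays, per the labels' protocols. The authors deposited a linear intensity for each probe set and array; the software behind it is not given in the sources used here. With 2% of values trimmed from both ends, every array had a mean intensity of 100.0, as scaling by a single factor gives. Among 45101 probe sets 64 were controls, and medians per array were 16.8 to 23.9. No 2 arrays were identical among 55 pairs.

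Gene symbols came from the platform annotation and were brought up to date with RefSeq of GRCm38.p6 through Entrez numbers (99.4% found). Probe sets with several symbols (932) or none were left out. For each of 18193 genes the probe set of highest mean log2 level was used, and dimmer probe sets of the 7 ADAMTS-family genes were read from a fit of all 34945 probe sets. Signals were taken as log2(signal + 16), and 32.9% of the genes had a mean level below that of a signal equal to the offset. Limma 3.58.1 in R 4.3.3 was fitted to all 11 arrays with 3 groups (8 residual and 3.99 prior degrees of freedom), with no filter on level, 2-sided tests and Benjamini-Hochberg adjustment over all genes. The procedure was tested on simulated data.

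The members and lists were chosen with earlier results of these data known. Lists were other ADAMTS genes, substrates, hyaluronan matrix, inhibitors and processing, MMPs, ADAMs and cell type markers. From each list up to 4 called genes a contrast with the smallest p were named, or up to 3 where none was called, and for each ADAMTS-family gene the 3 most correlated genes. Col1a1, Col1a2 and Col3a1 stand in both the substrate and the fibroblast list, and Fbln1 in both the inhibitor and the fibroblast list. Alternatives changed the offset, the scaling, the probe sets used per gene, the variance prior and the array weights, or added a minimum level or a replicate block, or restricted the fit to 2 groups, or left out each array. Leaving out the 5 arrays highest in pancreatic transcripts was chosen after seeing the data. Python 3.11.15 with matplotlib 3.10.9 drew the figures.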

Additional observations from a re-analysis of the deposited data

Results flagged for a closer look

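Among 28 groups of 4 arrays examined over the 14 probe sets, 3 held an array far from the other 3, where chance gives about 1 in 20. On 3 h replicate 2 the brightest Adamts9 probe set was at 263.6, with the other 3 h arrays between 162.8 and 170.4, and the second Adamts9 probe set was lowest on that array (47.5). The brighter Adamts12 probe set was at 20.9 on the same array, with the others between 10.8 and 11.7. The dimmer Adamts12 probe set was at 0.8 on 12 h replicate 2, with the others between 3.1 and 3.4.

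Effects at 12 h and 3 h, both against the same control arrays, differed for 12 genes of the lists other than cell type markers by limma's test of 12 h against 3 h. These lists held 14, 19, 12, 13, 18 and 12 measured genes, and 4.07% of all genes were called in this contrast. The lists were chosen with earlier results of these data known, so nothing is read from the count. Lower at 12 h than at 3 h on the log2 scale were Ptx3 (−2.68), Thbs1 (−1.54), Col1a1 (−0.85), Sdc4 (−0.75), Tnfaip6 (−0.74), Col5a1 (−0.70), Col1a2 (−0.58), Adamtsl1 (−0.52) and Col3a1 (−0.50). Higher were Hyal2 (0.77), Mmp11 (0.62) and Adam19 (0.54). For these 12 genes limma's adjusted p was 1.57e-05 to 0.0426. The calls of Hyal2, Adamtsl1, Mmp11 and Col3a1 were lost without some single arrays, as given above.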

How the results depend on the processing

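Of 21 changes of ADAMTS-family genes, none that was called changed sign under any alternative. Of their 474 values 22 moved by more than the spread between replicates, 20 of these with an offset of 1 or 64. The 4 genes called higher at 3 h were called under every alternative in which they were tested. These refits use the arrays by which the genes were chosen, so calls that last are not support for them. With a minimum mean level Adamts5, Adamts12 and Adamtsl2 were not tested. Adamts4 and Adamts9 passed this level only through their high 3 h arrays. At 12 h against control 1 of the 7 was called with an offset of 1, and 0 with an offset of 64 or with only the arrays of the contrast. The 7 were called lower 4 times between 12 h and 3 h, 3 times with an offset of 1 and once, Adamts1, without the 5 arrays high in pancreatic transcripts. Of 21 called changes of named list genes 19 lost the call under some alternative and none changed sign. Numbers of genes called at 3 h, at 12 h and between 12 h and 3 h were 462, 297 and 741. They were 229, 81 and 435 with an offset of 1 and 80, 8 and 16 without the 5 arrays, where fewer arrays remain. With an equal median 283 were called at 3 h and 459 between the times, with 70.1% of the 12 h calls higher in place of 48.1%. At 12 h there were 495 with an offset of 64, 636 with a minimum level, where fewer genes are tested, 536 with a trended robust prior and 62 with only the arrays of the contrast. Leaving out 1 array gave 161 to 520, 64 to 455 and 395 to 758 calls. At 3 h the calls numbered 172 without control replicate 1, 161 without control replicate 2, and 260, 223, 223 and 281 when 3 h replicates 1 to 4 were dropped in turn. At 12 h they numbered 75 without control replicate 1, 64 without control replicate 2, and 141, 110 and 455 when 12 h replicates 2 to 4 were dropped in turn. Between the times there were 395, 417, 450 and 442 without 3 h replicates 1 to 4 and 412 without 12 h replicate 2. Except where stated, the cause of these differences was not tested.

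With the labels' replicate number as a block 277, 183 and 466 genes were called. Residuals of same-numbered arrays correlated between −0.21 and 0.31, above 0.1 for 3 of 10 pairs, so the numbers were not taken to pair the samples. The block changed no call of an ADAMTS-family gene.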
